A study of Xenopus tropicalis with 31 samples.

Results

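The cadherin superfamily genes described here were taken from the window annotation of an ATAC-Seq series on tail regeneration in Xenopus tropicalis, the western clawed frog. ATAC-Seq reads open chromatin as fragments cut by a transposase, and the series counts these fragments in windows of 400 bp. The members were all windows whose nearest gene had a symbol starting with cdh and a digit, pcdh, celsr, dchs, clstn, ctnna or ctnnd, or was fat1 to fat4. The rule used no measured value and gave 607 windows of 50 genes, among 124349 windows in all and 23175 genes with at least 1 window. The nearest gene is a position, and no window is known here to act on the gene it is named for.

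Tails were amputated at NF stage 41. The labels give every sample the line with the transgenes pax6:GFP, cryga:RFP and actc1:RFP (GFP and RFP are fluorescent proteins), which was bred by crosses of heterozygous to wild-type frogs. The study's methods state that all-tissue samples pooled GFP+ with GFP- cells, so labels and methods both describe transgenic all-tissue tails. The all-tissue columns of the count table are nevertheless marked WT, a mark that the sources used here do not explain. In pax6 samples the cells were sorted for GFP, driven by the pax6 promoter, which marks neural progenitors. In all-tissue samples the cells passed through the sorter with no GFP gate, so GFP+ cells were not removed from them. Each tissue was sampled uninjured and at 0hpa, 6hpa, 24hpa and 72hpa (hours post amputation), with the cells of several tails pooled in each library. Uninjured samples were the amputated tail tips, and the study describes those after amputation as newly regenerated tissue, cut at the posterior end. Original or regrown tissue and the age of the animals therefore go with the timepoint and cannot be told apart from it. GFP+ cells can include some neurons, and some neural progenitors can lack GFP. Fragments from the promoters in the transgenes cannot be told apart from those of the endogenous pax6 and actc1 promoters, which touches windows of these genes and no member.

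Cadherins are calcium-dependent adhesion proteins that bind their like on the next cell. The classical cadherins of type I (cdh1, cdh2, cdh3, cdh4 and cdh15) and type II join cells through adherens junctions, where delta-catenin (ctnnd1) holds the cadherin at the membrane and alpha-catenin (ctnna1, ctnna2) links the complex to actin. During neural tube formation in vertebrates the neural plate loses E-cadherin (cdh1) and gains N-cadherin (cdh2), and type II cadherins such as cdh6, cdh7 and cdh11 mark subsets of neurons, neural crest and mesenchyme. Protocadherins of the delta-1 and delta-2 groups give weaker adhesion and sort cells and axons, the clustered protocadherins (the pcdha and pcdhg genes) give neurons surface identities, and Celsr, Fat and Dachsous cadherins carry planar cell polarity.

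The 27 samples used were 13 pax6 and 14 all-tissue samples, with 2 or 3 in each of the 10 groups. Counts in all windows ran between 3069659 and 12130125 in pax6 samples (median 5962615), against 4401013 to 13256076 in all-tissue samples (median 7014782.5). Member windows took 0.288 to 0.303% of these counts in pax6 samples and 0.280 to 0.300% in all-tissue samples. The median member window held 12 to 48 counts in a pax6 sample and 17 to 51 in an all-tissue sample, so that counting error alone is wide for a single window. Replicate 3 of pax6 72hpa stood apart, with 174 empty windows against 3 to 33 in the other 26 samples. TSS windows, no more than 500 bp away from a transcription start site (TSS), took 6.91 to 8.80% of the counts in pax6 samples (median 8.17%) and 7.05 to 10.2% in all-tissue samples (median 8.91%).

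The labels were checked on marker lists, and few of their windows passed. A window 4941 bp from the pax6 TSS averaged 9.13 ± 2.03 CPM (counts scaled to the library total) in pax6 samples and 3.16 ± 0.765 CPM in all-tissue samples (SD, n = 13 and 14), a log2 fold change of 1.502 with an adjusted p of 1.551e-12. The cells were sorted for GFP driven by the pax6 promoter of a transgene, and the part of that transgene in this value was not tested. A window of elavl3, an RNA-binding protein of neurons, was also higher in pax6 samples (0.59, adjusted p 0.0491). So was the TSS window of actc1, a muscle actin whose promoter is in the transgenes (1.33, adjusted p 1.673e-10). It was the only window called in the skeletal muscle list (25 windows of 10 of 11 genes, 52% positive, median 0.0013). The blood and vessel list (63 windows, 44.4% positive) had 1 window called lower, and the notochord list (26 windows, 57.7% positive) had none called. Of all windows 0.639% were called higher and 0.885% lower in pax6 samples, and 50.2% were positive. The pax6 and elavl3 windows were the only ones called in the lists of neural progenitors (90 windows of 9 of 10 genes, 56.7% positive) and of neurons (89 windows of 11 of 12 genes, 56.2% positive), and the TSS window of sox2, a neural progenitor factor, was at -0.27 (adjusted p 0.263). The summed progenitor signal ran from 539.2 to 575.8 CPM in pax6 samples and from 521.2 to 560.6 CPM in all-tissue samples, and the neuron signal from 490.8 to 528.3 CPM in pax6 samples and from 487.7 to 529.7 CPM in all-tissue samples, so both overlapped. Windows of 3 epithelial genes were lower, namely of epcam (-0.68, adjusted p 0.00464), tp63 (-0.68, adjusted p 0.00552) and krt8 (-0.79, adjusted p 0.01001). Over the whole epithelial list (53 windows of 9 of 11 genes) 39.6% of windows were positive, with a median log2 fold change of -0.02. Its summed signal ran from 265.1 to 301.2 CPM in pax6 samples and from 290.5 to 319.6 CPM in all-tissue samples, so the ranges overlapped. The lowest mean of a listed window was 2.53 CPM in pax6 samples. Tests here are edgeR quasi-likelihood F tests fitted on all 124342 windows that passed a minimum of 1 CPM in 2 samples, which every member window passed, with p adjusted by Benjamini-Hochberg over all of them and a threshold of 0.05. A fold change is pax6 over all-tissue, or the later over the earlier time, on the log2 scale. The p-values measure the spread between these libraries.

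Member windows lay far from promoters. Their median distance to the nearest TSS was 95834 bp, against 16530.5 bp over all 117398 annotated windows, and 69.2% of them (420) were more than 50 kb away, against 23.0%. Only 17 member windows (2.8%) lay within 500 bp of a TSS, against 9.18% of all annotated windows. The genes held many windows each, with a median of 9.5 per gene against 3 over all genes. Of the 50 genes 11 (22%) held 20 or more windows, a number reached by 2.83% of all genes. Chromosome 6 held 201 of the member windows (33.1%, against 8.78% of annotated windows), because the type II genes cdh6, cdh7, cdh9, cdh10, cdh12, cdh18, cdh19 and cdh20 and the type I gene cdh2 lie there. The 5 genes with the most windows were cdh10 and cdh12 with 39 each, pcdh18 with 32, and cdh11 and pcdh8.2 with 31 each. A TSS window was found for 14 of the 50 genes. For cdh5, the cadherin of endothelial junctions, all 17 windows lay more than 50 kb away, the nearest at 61544 bp.

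**Figure D1:**
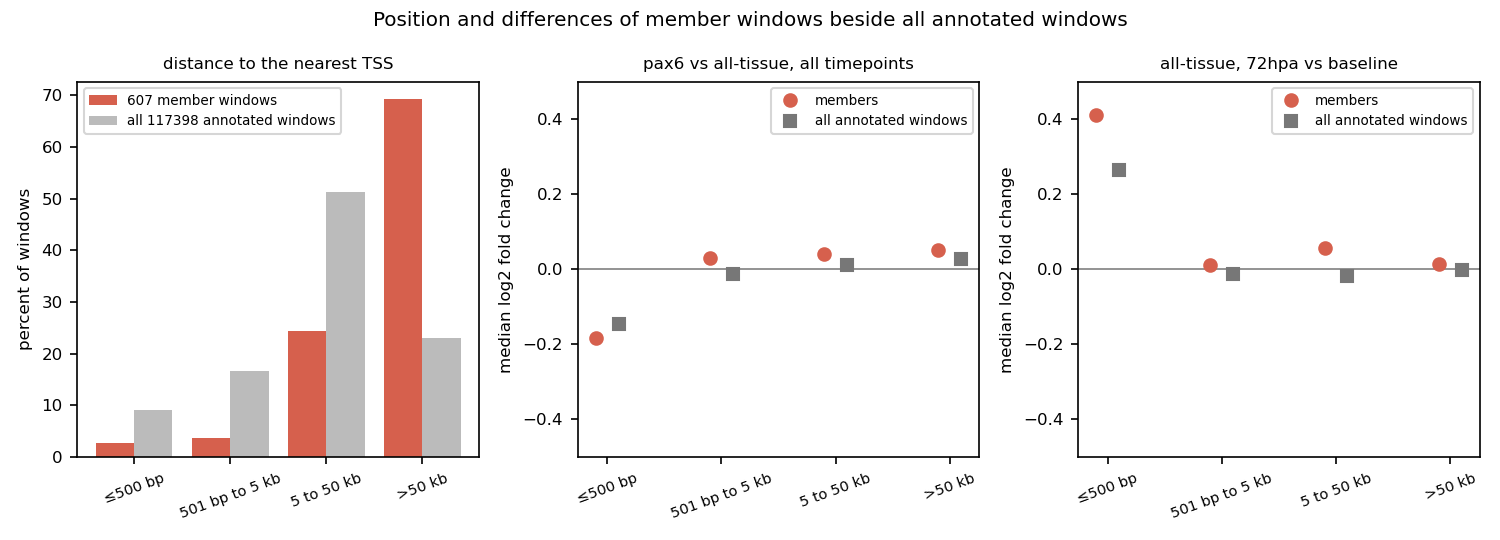
Left, percent of windows (y axis) in 4 classes of distance to the nearest TSS, for the member windows and for all annotated windows, where 69.2% of members against 23.0% of all windows lie beyond 50 kb. The other panels give the median log2 fold change in each distance class for members and all annotated windows, and within 500 bp the members are at -0.18 in pax6 over all-tissue and at 0.41 in all-tissue 72hpa over baseline.

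The question the study put first is how the chromatin of pax6 cells differs from that of the whole tail. Over all timepoints 4 of the 607 member windows (0.659%) passed the threshold, 1 higher and 3 lower in pax6 samples. The background was 1895 of 124342 windows (1.52%), with 0.639% higher and 0.885% lower, so the members' share lay below it. At an unadjusted p under 0.05 the members numbered 75 (12.4%, against 14.5% of all windows), of which 50 were higher (8.24%, against 6.91%) and 25 lower (4.12%, against 7.56%). None of the 607 windows separated the pax6 samples from the all-tissue samples without overlap, and of all windows 44 (0.0354%) did. The fold changes were small, with a median of 0.04 against 0.00 over all windows, and 381 of the 607 (62.8%) were positive, against 50.2% of all windows. Distance ran along with this sign: beyond 50 kb 64.5% of members and 57.2% of all annotated windows were positive, while within 500 bp 23.5% of members and 22.4% of all annotated windows were.

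The lowest of these adjusted p-values was at a window 373783 bp from pcdh18, a delta-2 protocadherin, at chr1:53106166-53106565 (X. tropicalis genome v9.0, as are all coordinates here). In pax6 samples it read 1.57 and 2.82 CPM uninjured, 0.978 and 2.77 at 0hpa, 1.80, 1.78 and 1.89 at 6hpa, 1.80, 1.24 and 1.71 at 24hpa, and 1.88, 0.699 and 1.19 at 72hpa. In all-tissue samples it read 4.58, 3.45 and 3.08 CPM uninjured, 5.16 and 2.75 at 0hpa, 4.21, 2.24 and 2.63 at 6hpa, 3.41, 4.11 and 4.07 at 24hpa, and 2.72, 3.20 and 2.11 at 72hpa. Of the 13 pax6 samples 11 lay below the lowest all-tissue sample, and the groups overlapped through 1 uninjured and 1 0hpa pax6 sample. The window was lower in pax6 samples, with a log2 fold change of -0.95 (SE 0.172, adjusted p 0.00069), from counts of 3 to 34 per pax6 sample and 15 to 40 per all-tissue sample. It was below all-tissue at every timepoint, with fold changes between -0.70 at 6hpa and -1.31 at 24hpa. Its neighbours did not share this: 20 of the 32 windows of pcdh18 had positive fold changes, and the next window on the side of pcdh18, at 368150 bp, was at 0.32 (adjusted p 0.156).

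A window of pcdh7, a delta-1 protocadherin, at chr1:25620128-25620527 and 43946 bp from its TSS, was also lower. In pax6 samples it ran from 1.28 to 6.38 CPM with a median of 3.998, and in all-tissue samples from 4.46 to 8.04 CPM with a median of 6.90. As at pcdh18, 11 of 13 pax6 samples lay below every all-tissue sample. The log2 fold change was -0.63 (SE 0.129, adjusted p 0.00383), negative within each timepoint from -0.45 at 6hpa to -0.97 uninjured. Of the 8 pcdh7 windows 6 were negative, and the one 62877 bp from the TSS came nearest to passing, at -0.51 (adjusted p 0.0627).

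A window of dchs2, a Dachsous cadherin that is a ligand for Fat cadherins in planar polarity, fell at chr1:45464549-45464948, 28965 bp from the TSS. The pax6 samples ran from 0.884 to 3.56 CPM (median 1.95) and the all-tissue samples from 2.05 to 5.003 CPM (median 3.42). Here 8 of 13 pax6 samples lay below the lowest all-tissue sample and 12 below the all-tissue median, with more overlap than at pcdh18 or pcdh7. The log2 fold change was -0.77 (SE 0.170, adjusted p 0.00852). By timepoint it was -1.01 uninjured, -0.51 at 0hpa, -0.16 at 6hpa, -0.96 at 24hpa and -1.30 at 72hpa, so the tissues lay closest at 6hpa. The other dchs2 windows did not share this as a set. Of the 13 windows of the gene 8 were positive, with a median of 0.03, and their sum was at 0.04.

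The member that was higher in pax6 samples was a window of pcdh17, a delta-2 protocadherin of axons and synapses in mammals, at chr2:128065431-128065830 and 311279 bp from the TSS. It ran from 7.35 to 11.8 CPM in pax6 samples (median 10.1) and from 5.62 to 8.71 CPM in all-tissue samples (median 7.49). In 11 of 13 pax6 samples it was above the highest all-tissue sample, and the other 2, 1 at 24hpa and 1 at 72hpa, lay near the all-tissue median. The log2 fold change was 0.41 (SE 0.0876, adjusted p 0.00653), positive within each timepoint between 0.26 and 0.59. The window next to it, at 312438 bp, was at 0.06.

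**Figure D2:**
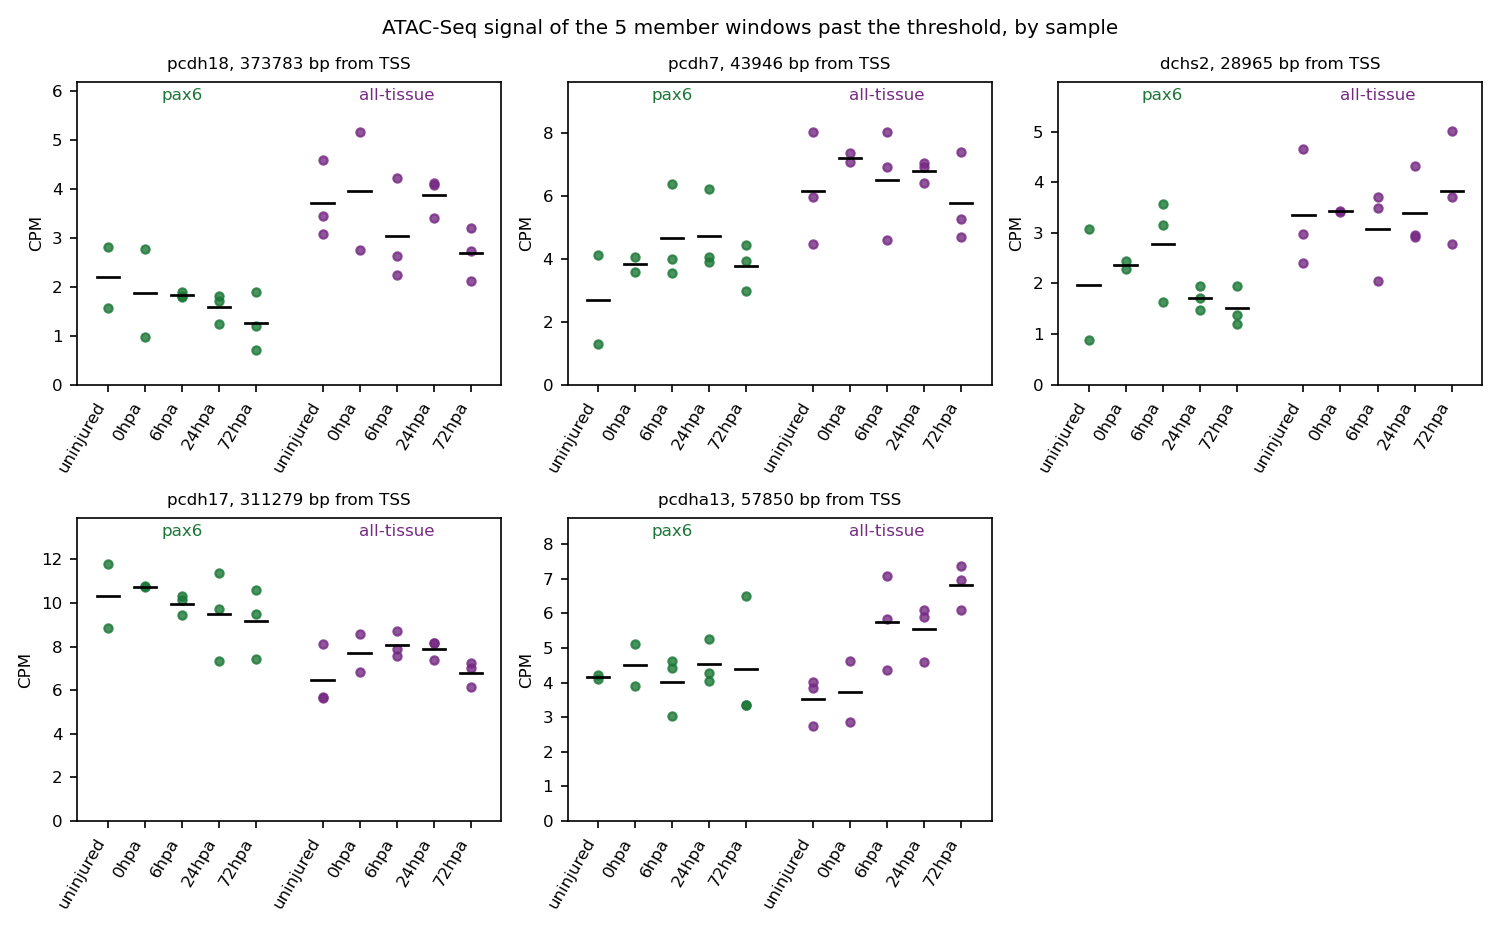
CPM (y axis, from 0) in each sample by tissue and timepoint (x axis) for the 5 member windows past the threshold in any comparison, with a bar at each group mean. The windows of pcdh18, pcdh7 and dchs2 sit lower and that of pcdh17 higher in most pax6 samples, and the pcdha13 window is at 6.11 to 7.38 CPM in all-tissue 72hpa samples.

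At promoters, none of the cadherins that define cell types passed in edgeR's test. The TSS window of cdh1 (chr4:63875680-63876079), the epithelial cadherin and the only window of that gene, averaged 4.77 ± 1.77 CPM in pax6 samples and 6.87 ± 1.91 CPM in all-tissue samples (SD, n = 13 and 14). Its log2 fold change of -0.56 did not pass (adjusted p 0.0557), and it was the nearest to the threshold among members that missed it. Its adjusted p ran from 0.00536 to 0.105 over 12 alternative settings and 27 fits with 1 sample left out. It was called in 10 of these, counting the setting that called at an unadjusted p under 0.01 instead of the adjusted p. By time, pax6 samples averaged 6.56 ± 3.03 CPM uninjured, 5.37 ± 0.681 at 0hpa, 3.32 ± 0.834 at 6hpa, 5.27 ± 0.895 at 24hpa and 4.11 ± 2.16 at 72hpa, against 6.03 ± 0.890, 5.94 ± 5.43, 7.43 ± 1.34, 7.30 ± 1.04 and 7.33 ± 1.52 CPM in all-tissue samples at the same times (SD, n = 2 or 3). The 6hpa samples were the farthest apart and did not overlap, at 2.94, 4.27 and 2.74 CPM in pax6 and 7.41, 6.10 and 8.77 CPM in all-tissue, a log2 fold change of -1.14 (adjusted p 0.261). The spread was wide before regrowth, with 2.10 and 9.78 CPM in the 0hpa all-tissue samples. The sample at 2.10 CPM also had the smallest share of counts in TSS windows among all-tissue samples (7.05%), and the part of that share in the result was not tested. The called windows of epcam, tp63 and krt8 had the same sign as cdh1, while 39.6% of the 53 windows of the epithelial list were positive. Their part in the cdh1 value was not tested either.

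The TSS window of cdh3 (P-cadherin, of basal epithelium), at chr4:63925127-63925526, averaged 5.24 ± 1.66 CPM in pax6 samples and 6.36 ± 1.59 CPM in all-tissue samples (log2 fold change -0.31, adjusted p 0.251). The TSS window of cdh2 (N-cadherin, of neural tissue), at chr6:96155590-96155989, averaged 5.60 ± 1.44 CPM in pax6 samples and 5.49 ± 0.833 CPM in all-tissue samples (log2 fold change 0.05, adjusted p 0.911). This sign turned to -0.02 without replicate 3 of pax6 72hpa, so the promoter of cdh2 gave no direction. The pax6 group means of cdh2 were 4.45 ± 0.508 CPM uninjured, 5.45 ± 0.796 at 0hpa, 5.63 ± 0.855 at 6hpa, 5.08 ± 1.55 at 24hpa and 6.96 ± 2.08 at 72hpa, with all-tissue means between 4.85 and 6.16 CPM. A second window of cdh2, 293 bp from the TSS, was at 0.05 (adjusted p 0.931). The TSS window of cdh11, a type II cadherin of mesenchyme and neural crest, averaged 4.602 ± 0.961 CPM in pax6 samples and 4.04 ± 1.38 CPM in all-tissue samples (0.13, adjusted p 0.749). Group means of cdh11 ran from 3.83 to 5.28 CPM in pax6 samples and from 3.01 to 5.29 CPM in all-tissue samples.

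**Figure D3:**
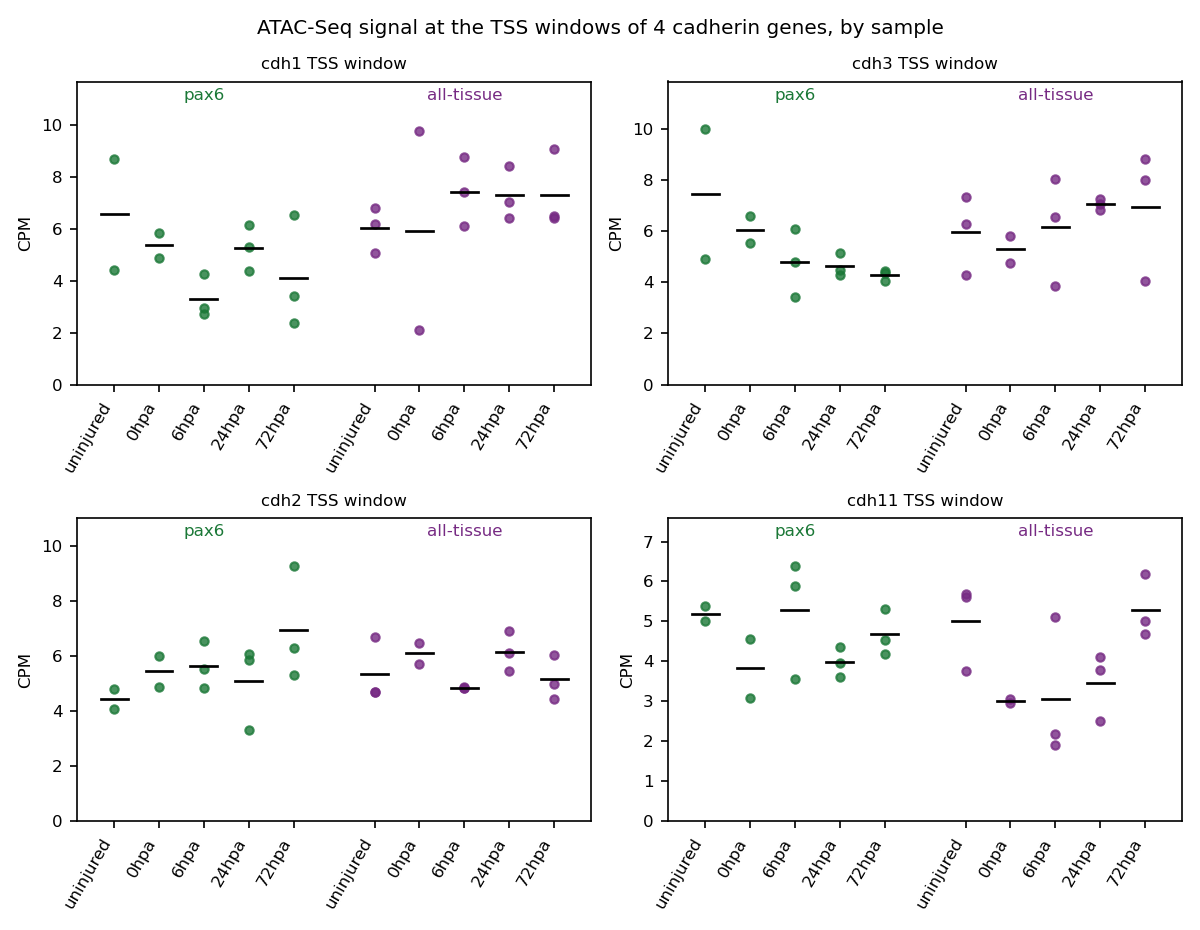
CPM (y axis, from 0) in each sample by tissue and timepoint (x axis) at the TSS windows of cdh1, cdh3, cdh2 and cdh11, with a bar at each group mean. The pax6 6hpa samples of cdh1 lie at 2.74 to 4.27 CPM, below the all-tissue 6hpa samples at 6.10 to 8.77 CPM, while the tissues overlap at cdh2 and cdh11.

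Of the other 10 genes with a TSS window none passed, and all 10 nearest windows had negative fold changes. The protocadherins pcdh10 (-0.36, adjusted p 0.204) and pcdh19 (-0.24, adjusted p 0.238) had all 13 pax6 samples below the all-tissue median. The planar polarity gene celsr1 was at -0.35 (adjusted p 0.148), the junction genes ctnna1 and ctnnd1 at -0.21 and -0.15, and ctnnal1, an alpha-catenin relative, at -0.33. A second window of ctnnal1, 237 bp from the TSS, was at 0.19 (adjusted p 0.643), and 6 of the 7 ctnnal1 windows were positive. The TSS windows of pcdh20, pcdh1, pcdh9 and cdh8 were at -0.26, -0.18, -0.08 and -0.06. A second pcdh20 window, 332 bp from the TSS, averaged 9.76 CPM in pax6 and 10.04 CPM in all-tissue samples (-0.02, adjusted p 0.972). Its signal was above that of the nearest window, at 4.63 and 5.44 CPM. Over all 17 member TSS windows the median was -0.18, beside -0.14 over the 10774 annotated windows within 500 bp, and by timepoint it was -0.09 uninjured, 0.11 at 0hpa, 0.04 at 6hpa, -0.27 at 24hpa and -0.39 at 72hpa, beside -0.12, 0.08, -0.11, -0.26 and -0.24 over all windows that near to a TSS. At 0hpa and at 6hpa 58.8% of the 17 were positive, so the negative sign did not hold at every time. These shifts stand beside the smaller share of TSS counts in pax6 samples given above, whose part was not tested. Some cell type genes could be read only at a distance. The nearest window of cdh5 was at 0.16, that of pcdh18 (21983 bp) at -0.03, and that of cdh15 (M-cadherin, of muscle, 20659 bp) at 0.29 with an adjusted p of 0.313.

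**Figure D4:**
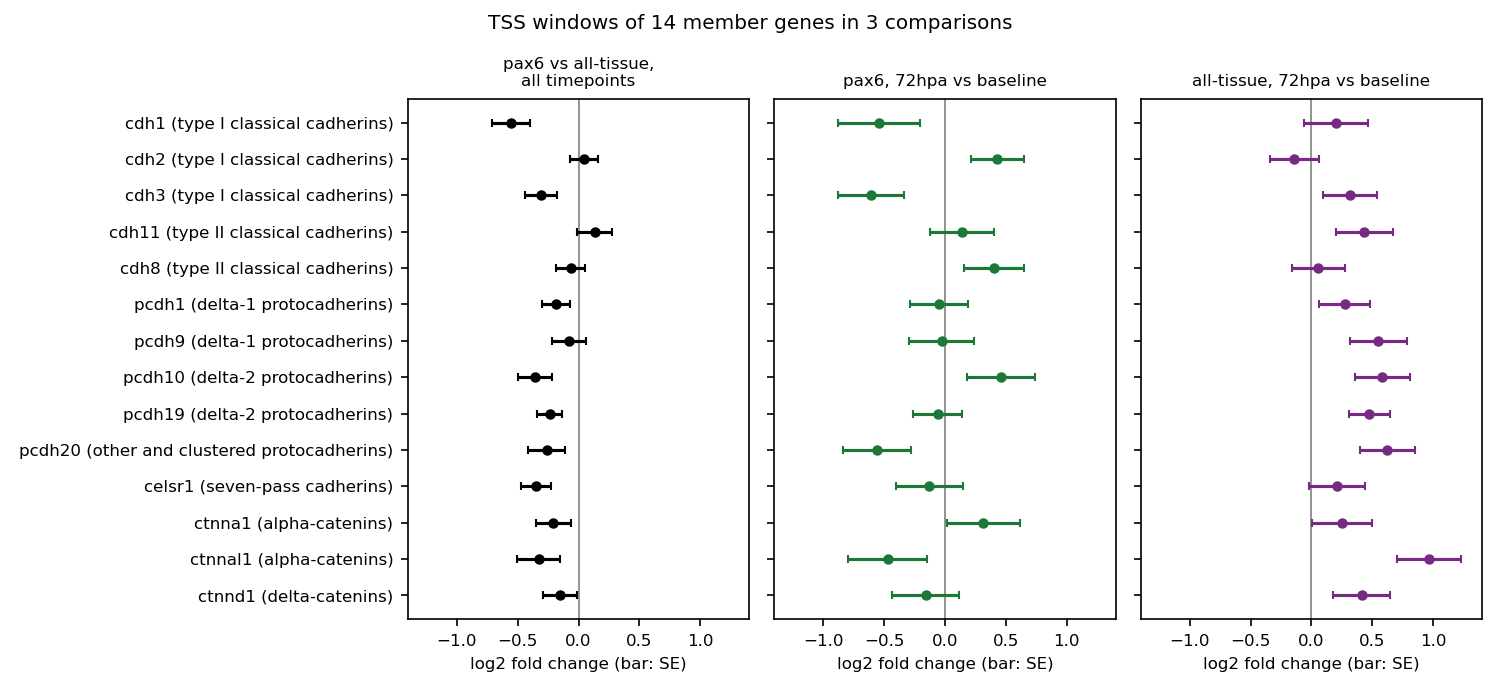
Log2 fold change with its SE (x axis) at the nearest TSS window of 14 member genes (rows) in 3 comparisons, namely pax6 over all-tissue, pax6 72hpa over baseline and all-tissue 72hpa over baseline. In pax6 over all-tissue 12 of the 14 lie below 0, led by cdh1 at -0.56, and none of the values passes the threshold.

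Read by role, type II classical cadherins had mostly positive fold changes, without any window that passed. Of their 233 windows 67.4% were positive, beside 50.2% of all windows and 57.2% of those beyond 50 kb. At an unadjusted p under 0.05 16 were higher (6.87%) and 4 lower (1.72%), so that the share higher lay next to the 6.91% of all windows and the share lower below their 7.56%. These shares of all windows are the background for each group here, and nothing is read from a share near them. All 14 windows of cdh6 were positive, between 0.01 and 0.24, and so were 25 of the 31 windows of cdh11, between -0.17 and 0.40. For cdh10 and cdh12, both with 39 windows and both cadherins of brain in mammals, 23 windows each were positive, at a median of 0.05 and 0.03. Type I cadherins had 29 windows, 24 of them of cdh2, with 6 higher (20.7%) and 3 lower (10.3%) at an unadjusted p under 0.05. Delta-2 protocadherins had 119 windows with 15 higher (12.6%) and 7 lower (5.88%), and pcdh8.2, with 31 windows, had 20 positive ones. Delta-1 protocadherins were the group with the fewest positive windows among those with 10 or more, at 43.9% of 66, with 2 higher (3.03%) and 5 lower (7.58%). Clustered and other protocadherins gave 2 higher and 2 lower of 45 (4.44% each), Fat and Dachsous cadherins 4 higher (20%) and 1 lower (5%) of 20, cadherins of other types 4 higher (6.67%) and 2 lower (3.33%) of 60, and the alpha-catenins 1 higher (8.33%) and 0 lower of 12. The seven-pass cadherins celsr1 and celsr2 gave 0 higher and 1 lower of 6. The calsyntenin clstn3, a synaptic cadherin relative, had 12 of 13 windows positive, and it and ctnnd1 with 4 windows had none at an unadjusted p under 0.05. Windows of 1 gene are not independent, and the shares are given as a description.

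Summing all windows of a gene gave 1 value per gene. By this measure 633 of 23175 genes (2.73%) passed and 0 of the 50 member genes did in edgeR's test, while DESeq2 and edgeR's likelihood ratio test each called 3. The shares of all genes called by DESeq2 and the likelihood ratio test were not counted, so nothing is read from these calls. At an unadjusted p under 0.05 there were 17 members (34%, against 18.6% of all genes), 14 of them higher (28%, against 9.26%). Of the 50 sums 39 (78%) were positive, against 51% of all genes. The genes of this background are unlike the members, which summed a median of 9.5 windows against 3. Of the member windows 69.2% lay beyond 50 kb, where 57.2% of all annotated windows were positive. The part of either in these shares was not tested. The sum of cdh11 was 137.5 ± 10.3 CPM in pax6 samples and 127.3 ± 5.03 CPM in all-tissue samples (log2 fold change 0.11, adjusted p 0.0772). The sum of cdh6 was at 0.14 (adjusted p 0.0689), of cdh5 at 0.13 (adjusted p 0.0949), of pcdh17 at 0.10 (adjusted p 0.120) and of clstn3 at 0.12 (adjusted p 0.141). The lower members were cdh1 at -0.53 (adjusted p 0.0560), pcdh7 at -0.18 (adjusted p 0.0735) and celsr1 at -0.20 (adjusted p 0.212). Without 1 all-tissue sample, replicate 1 of 0hpa, 4 member genes passed, and without replicate 3 of pax6 72hpa 2 did. The share of all genes that passed in these refits was not counted either.

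**Figure D5:**
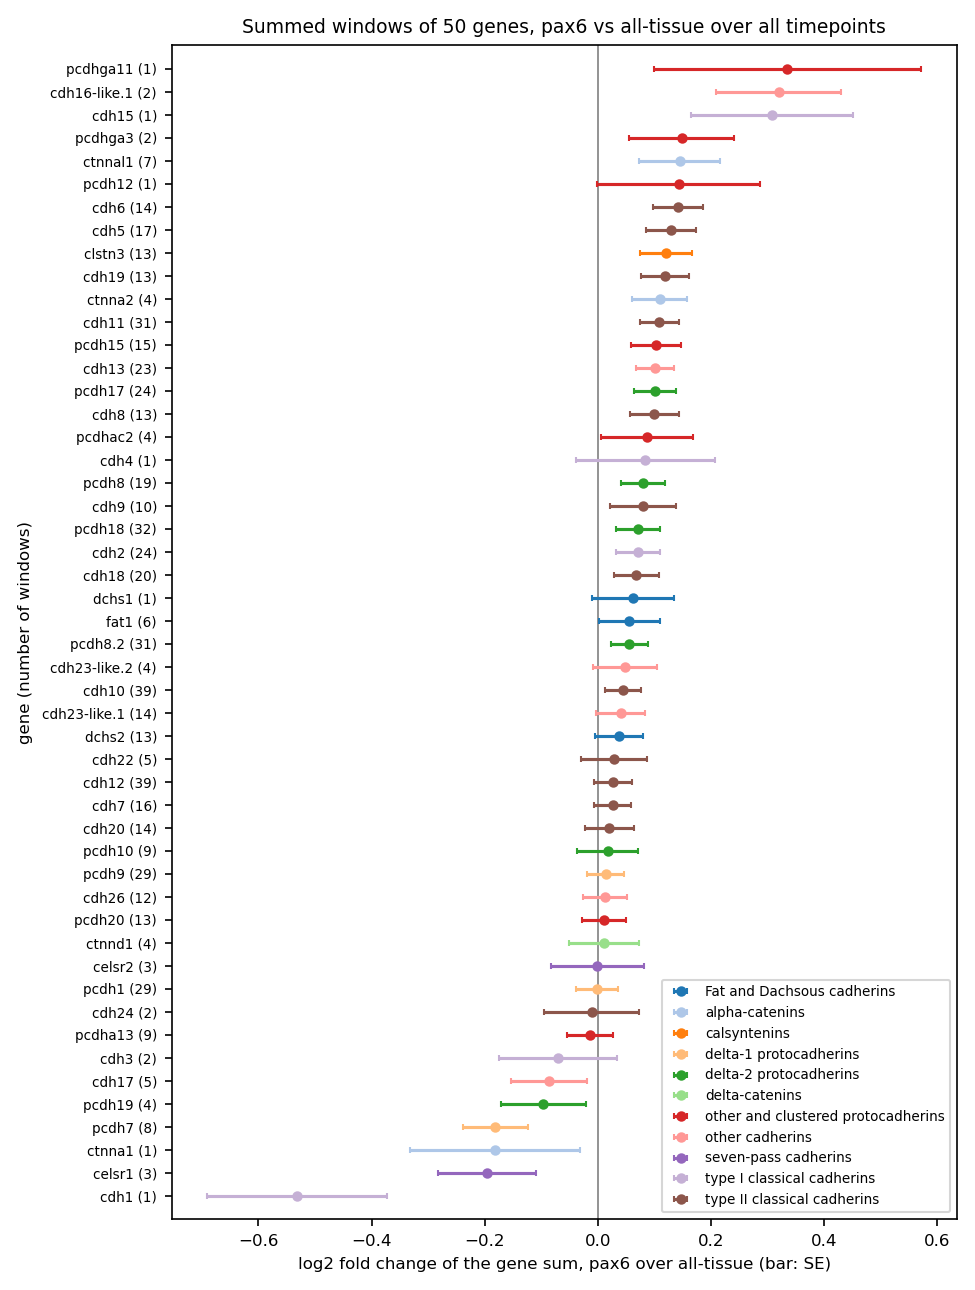
Log2 fold change of the summed windows of each of the 50 genes, pax6 over all-tissue, with its SE (x axis), by gene with the number of windows (y axis). Most genes (39 of 50) lie above 0 within a narrow range, cdh1 is lowest at -0.53, and no gene passes the threshold.

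Within single timepoints no member window passed in edgeR's test or in DESeq2. The background was 0.0129% of all windows uninjured, 0.00724% at 0hpa, 0.0844% at 6hpa, 0.041% at 24hpa and 0.369% at 72hpa. At an unadjusted p under 0.05 the members numbered 40 uninjured (6.59%, against 7.3% of all windows), 32 at 0hpa (5.27%, against 5.74%), 46 at 6hpa (7.58%, against 9.13%), 29 at 24hpa (4.78%, against 6.99%) and 55 at 72hpa (9.06%, against 11.3%). The edgeR likelihood ratio test called 1 member at 24hpa and 1 at 72hpa and none at the other times. Leaving out replicate 3 of pax6 72hpa gave 1 member at 24hpa and 1 at 72hpa. Leaving out replicate 1 of pax6 uninjured left that group with 1 sample, and the calls of that fit are not read. The share of all windows called was not counted for these alternative fits, so their calls are no result about the members.

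The window nearest to passing at 72hpa was that of dchs2 described above, at 1.20, 1.96 and 1.38 CPM in pax6 and 3.70, 2.79 and 5.003 CPM in all-tissue samples (-1.30, adjusted p 0.0957). In the other direction at 72hpa stood a window 1784 bp from cdh6, at 5.13, 4.19 and 5.93 CPM in pax6 and 2.19, 3.76 and 2.50 CPM in all-tissue samples (0.88, adjusted p 0.164). At 6hpa a window 356306 bp from cdh10 was at 4.41, 3.92 and 5.68 CPM in pax6 and 1.51, 2.24 and 2.48 CPM in all-tissue samples (1.13, adjusted p 0.175). The groups of 3 samples did not overlap in these windows, yet none passed over all windows. The windows were named for the smallest p of their sign, so the lack of overlap adds no support. How many of all windows lack overlap at a single timepoint was not counted, here or for cdh1 at 6hpa. Uninjured samples gave a cdh6 window 69417 bp away at 0.62 and a cdh7 window 107277 bp away at -1.10, with no adjusted p below 0.375 among the members.

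A window 345078 bp from pcdh1, at chr3:20515987-20516386, had its highest samples at different times in the 2 tissues. In pax6 samples it read 22.1 and 10.8 CPM uninjured, 30.3 and 31.3 at 0hpa, 22.4, 20.7 and 21.0 at 6hpa, 22.2, 20.8 and 17.9 at 24hpa, and 20.02, 25.3 and 18.4 at 72hpa. In all-tissue samples it read 18.1, 22.5 and 21.2 CPM uninjured, 17.8 and 19.7 at 0hpa, 17.0, 16.8 and 18.7 at 6hpa, 33.6, 36.3 and 28.1 at 24hpa, and 22.1, 24.5 and 22.7 at 72hpa. The all-tissue 24hpa samples were above every other all-tissue sample, and the 2 pax6 0hpa samples above every other pax6 sample. The window was named for the smallest p of its sign in several comparisons, so this separation adds no support. How many of all windows show such a separation was not counted. At 0hpa pax6 over all-tissue was 0.72, which did not pass, and the smallest adjusted p of any member at 0hpa was 0.516. In all-tissue samples 24hpa was above 6hpa by a log2 fold change of 0.90 (SE 0.154) with an adjusted p of 0.0635, which did not pass, and at 24hpa pax6 over all-tissue was -0.68 (adjusted p 0.0636). The difference between the tissues in the step between 6hpa and 24hpa was -0.97 (adjusted p 0.227), and no member passed for that difference by any of the 3 tests (29 at an unadjusted p under 0.05, against 7.28% of all windows, background 0%). This window sat near the threshold under other tests and samples, with an adjusted p of 0.0410 by DESeq2 and 0.00223 by edgeR's likelihood ratio test for all-tissue 24hpa over 6hpa, and it passed there without replicate 3 of all-tissue 24hpa or of pax6 72hpa.

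The study also asked which regions open or close as the tail regrows. In these comparisons baseline is the mean of the uninjured and 0hpa groups of a tissue, and the comparisons to it share those samples. At 0hpa over uninjured, over both tissues, no member passed in edgeR's test, DESeq2 or the likelihood ratio test, with 33 at an unadjusted p under 0.05 (5.44%, against 4.03% of all windows) and a background of 0%. In pax6 samples no window of the series passed at 6hpa over baseline, 24hpa over 6hpa, 72hpa over 24hpa or 72hpa over baseline, a background of 0% in each. The members at an unadjusted p under 0.05 numbered 37, 34, 36 and 42 in that order, against 5.95, 7.71, 7.14 and 7.4% of all windows, and DESeq2 and the likelihood ratio test called no member in the 4 comparisons. The member with the smallest p above baseline at 72hpa was a window 206571 bp from cdh2, at 17.3, 18.2 and 18.6 CPM at 72hpa, against 11.9 and 10.2 CPM uninjured and 11.7 and 14.2 CPM at 0hpa (0.55, adjusted p 0.392). The groups did not overlap, in a window that was picked for its small p. Below baseline it was a window 246187 bp from cdh18, at 1.37, 2.24 and 0.791 CPM at 72hpa, against 4.91 and 2.56 CPM uninjured and 4.57 and 3.33 CPM at 0hpa (-1.33, adjusted p 0.392). The fit without replicate 1 of pax6 uninjured left that group with 1 sample, and its calls are not read.

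In all-tissue samples no member passed at 6hpa over baseline (22 at an unadjusted p under 0.05, against 5.7% of all windows, background 0.00161%), 24hpa over 6hpa (19, against 4.38%, background 0%) or 72hpa over 24hpa (22, against 3.99%, background 0.000804%) in edgeR's test. DESeq2 and the likelihood ratio test called the pcdh1 window at 24hpa over 6hpa and no other member in these 3. At 72hpa over baseline 1 member passed (0.165%), beside 0.795% of all windows, 0.659% higher and 0.136% lower, and 49 members (8.07%) were at an unadjusted p under 0.05, against 10.5% of all windows. The called member was a window 57850 bp from pcdha13, a clustered protocadherin, at chr3:17869916-17870315. It read 6.11, 7.38 and 6.98 CPM at 72hpa, against 2.75, 3.85 and 4.02 CPM uninjured and 2.86 and 4.62 CPM at 0hpa, with no overlap. The window was named for passing, so the lack of overlap adds no support. How many of all windows lack overlap in this comparison was not counted. The pcdha13 window was at 7.07, 4.36 and 5.85 CPM at 6hpa and 5.91, 4.603 and 6.11 CPM at 24hpa. In pax6 samples it read 4.22 and 4.09 CPM uninjured, 3.91 and 5.12 at 0hpa, 4.41, 3.03 and 4.63 at 6hpa, 5.25, 4.29 and 4.05 at 24hpa, and 6.502, 3.36 and 3.36 at 72hpa. The all-tissue window rose by a log2 fold change of 0.87 (SE 0.212, adjusted p 0.0323). In pax6 samples the same step was -0.03, and the difference between the tissues was -0.90 (adjusted p 0.521).

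The call at pcdha13 depended on which samples entered. It was lost without any 1 of the 3 all-tissue 72hpa samples and without replicate 1 of all-tissue uninjured. It was also lost with the uninjured group alone as baseline (0.95, adjusted p 0.101). The same held with the second 72hpa library placed with replicate 2 (0.82, adjusted p 0.0677) or left out with the other second library (0.70, adjusted p 0.249). Without replicate 3 of pax6 72hpa, 3 members passed in this comparison, and the share of all windows that passed in that refit was not counted. Leaving out either sample of all-tissue 0hpa left that group with 1 sample, and the calls of those fits are not read. Clustered protocadherin genes have near-identical copies, and reads of such copies may be split between them. Whether this touches the called window, 57850 bp from the pcdha13 TSS, was not tested.

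Over the 17 member TSS windows, all-tissue 72hpa lay above baseline with a median log2 fold change of 0.41 and 94.1% positive, beside 0.26 and 74.7% for all windows within 500 bp of a TSS, of which 4.68% passed. None of the 17 member windows passed in edgeR's test, and the one nearest to it was ctnnal1, at 5.36, 4.32 and 4.87 CPM at 72hpa, against 2.98, 2.43 and 3.08 CPM uninjured and 1.34 and 2.75 CPM at 0hpa (0.96, adjusted p 0.0645). In pax6 samples the members' median in that step was -0.06, beside 0.03 for all TSS windows. The difference between the tissues had a median of -0.54 over the 17 windows and -0.22 over all TSS windows, and no member passed in it by edgeR's test, DESeq2 or the likelihood ratio test (36 of 607 at an unadjusted p under 0.05, against 6.96% of all windows, background 0.000804%). The share of counts in TSS windows was itself 9.00 to 9.81% in all-tissue 72hpa samples, against 7.99 to 8.58% in uninjured and 7.05 to 8.95% in 0hpa samples, and its part in these values was not tested.

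Other genes of cadherin adhesion and planar polarity were read from a list of 49, of which 34 had windows, 246 in all. In pax6 over all-tissue 1 of these windows was higher, of dvl2, a Wnt and polarity mediator (0.41, adjusted p 0.0220), and 1 lower, of pkp3, a desmosomal plaque protein of epithelium (-0.66, adjusted p 0.00311). Their summed signal was 1334 to 1506 CPM in pax6 samples and 1382 to 1502 CPM in all-tissue samples. Of all windows 0.639% were called higher and 0.885% lower in that comparison. At an unadjusted p under 0.05 18 of the 246 were higher (7.32%, against 6.91%) and 26 lower (10.6%, against 7.56%). In all-tissue 72hpa over baseline 0 rose and 1 fell, beside 0.659% higher and 0.136% lower of all windows. The window that fell was also of dvl2, 8516 bp from the TSS (-0.85, adjusted p 0.0489).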

How the data were processed

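ATAC-Seq libraries were made from sorted tail cells of X. tropicalis. Per the study's methods, adapter trimming (Trim Galore) was followed by Bowtie2 alignment to genome v9.0 and removal of duplicate fragments. Peaks came from MACS2 run once on the merged alignments (shift -100, extension 200), and featureCounts counted fragments of up to 2000 bp. Tool versions are not given in the sources used here. The deposited table holds raw counts per window, and the nearest gene and its distance come from the deposited annotation. The annotation tables also hold the authors' own fold changes and p-values, which were not used. How windows were merged across libraries bears on all values, since a window open in few cells of 1 group may not have been called.

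Of 31 libraries, 2 with under 100000 counts (pax6 0hpa replicate 1 and pax6 uninjured replicate 3) were left out. A second 72hpa all-tissue library and a second uninjured all-tissue library were summed with replicate 1 of their groups, which gave 27 samples. Counts were normalised by TMM and tested with edgeR 4.0.16 (R 4.3.3), as a 2-group fit over all timepoints and a 10-group fit. DESeq2 1.42.0 served as an alternative. Scripts were tested on simulated counts. CPM values were computed from total window counts multiplied by the TMM factor of each sample. For gene sums the total was that of the windows with a nearest gene. Named windows are those past the threshold, the nearest to it where none passed, at most 2 in each direction, the TSS windows, the cell type genes and pcdh18, and the 5 genes with the most windows. The members and lists were chosen with earlier results of these data known. No sequence, exon or intron annotation was used here.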

Additional observations from a re-analysis of the deposited data

How the results depend on the processing

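In pax6 over all-tissue, 4 member windows passed as reported and 4 to 6 with any 1 sample left out, 5 without pax6 72hpa replicate 3 and pax6 0hpa replicate 2 together (chosen after seeing the data), 10 by edgeR's likelihood ratio test (3 higher, 7 lower), 2 among windows within 50 kb of a TSS and 30 at an unadjusted p under 0.01 (4.94%, against 5.96% of all windows). The windows of pcdh7 and pcdh17 passed under every setting run that kept them. Those of pcdh18 and dchs2 passed under every setting that gave an adjusted p, with none given by DESeq2. Apart from the unadjusted p under 0.01, the share of all windows or genes called under these settings was not counted. Their counts are therefore no result about the members, and some of the fits left 1 sample in a group. Each sample was left out of the comparisons its group enters, and pax6 72hpa replicate 3 of all comparisons. The counts then ran from 0 to 8 for the tissues uninjured, 0 to 1 at 24hpa, 0 to 1 at 72hpa, 0 to 1 for pax6 72hpa over baseline, 0 to 1 for all-tissue 24hpa over 6hpa, 0 to 6 for all-tissue 72hpa over baseline (1 as reported), 0 to 1 for the difference between tissues in 72hpa over baseline, and 0 to 4 for gene sums. The likelihood ratio test gave 1 member for the tissues at 24hpa, 1 at 72hpa, 1 for all-tissue 24hpa over 6hpa, 3 for all-tissue 72hpa over baseline and 3 gene sums, and DESeq2 gave 1 for all-tissue 24hpa over 6hpa and 3 gene sums. Summing windows within 50 kb gave 1 gene. All-tissue 72hpa over baseline gave 0 members with the uninjured group as baseline, 0 with the second 72hpa library placed with replicate 2 and 0 without the second libraries. At an unadjusted p under 0.01 members numbered 8 uninjured, 6 at 0hpa, 11 at 6hpa, 6 at 24hpa and 12 at 72hpa between tissues (0.988 to 1.98% of members, each below the 2, 1.3, 2.74, 2.09 and 3.96% of all windows). They numbered 5, 9, 4 and 12 in pax6 samples (against 1.35, 2.05, 1.68 and 1.8% of all windows) and 4, 3, 2 and 12 in all-tissue samples (against 1.26, 0.807, 0.659 and 4.15%) for 6hpa over baseline, 24hpa over 6hpa, 72hpa over 24hpa and 72hpa over baseline, of which the pax6 72hpa over baseline count (1.98%) was the one above its background. They numbered 9 for 0hpa over uninjured (1.48%, against 0.663%), 8 and 10 for the difference between tissues in 24hpa over 6hpa and in 72hpa over baseline (1.32 and 1.65%, against 1.81 and 1.87%), and 9 for gene sums (18%, against 7.94% of all genes). Signs turned for the cdh13 sum (-0.11 within 50 kb). They also turned for the cdh2 TSS window between tissues, at -0.0213 to 0.097 with 1 sample left out. That value was negative without pax6 72hpa replicate 3, and -0.0147 with pax6 0hpa replicate 2 also left out. The cdh1 TSS window in all-tissue 72hpa over baseline ran from -0.0927 to 1.0143 with 1 sample left out. It was negative without all-tissue 0hpa replicate 1. Leaving out either all-tissue 0hpa sample left that group with 1 sample, and the calls of those fits are not read. None of the other values passed the threshold. The causes were not tested. Samples of the 2 tissues that shared a replicate number had low r in their deviations (between -0.096 and 0.074 over 12 pairs, none above 0.1). The median r was 0.015, against -0.005 for other pairs, and 6 of 13 pax6 samples correlated best with their own number. Low counts weaken such r values, and groups of 2 samples deviate as mirror images, so they cannot decide whether the samples were paired. With replicate number as a block 5 windows passed between tissues, 1 at 24hpa (pcdh1, adjusted p 0.0497) and 2 in all-tissue 72hpa over baseline, and the other counts did not move. With a median of 12 to 51 counts per member window in a sample, depth limits which differences could be detected.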
